A study of Mus musculus with 8 samples.

Results

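The regions described here are the m6A peaks that the authors' deposited tables list with 1 block, meaning that the peak is an uninterrupted stretch of the genome and was not split over several exons. The mark, N6-methyladenosine (m6A), is a methyl group on an adenosine of RNA. Members were taken by the block count alone, from each of the 2 deposited tables, with rows that carry no gene ID kept. They number 309 of 581 listed peaks: 67 of 116 (57.8%) in the comparison of infarcted with sham-operated ventricle, and 242 of 465 (52.0%) in the comparison of infarcted ventricle labelled aavFto with infarcted ventricle labelled aavgnp. The nearest peaks outside the rule were those of 2 blocks, 24 in the first table with a median length of 151 nt and 101 in the second with a median length of 175 nt. The exon annotation was not used here, so whether each block lies inside an annotated exon was not checked.

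The study sequenced 8 libraries from left ventricle of wild-type C57BL/6 mice. The 4 groups were sham, MI (myocardial infarction), MI with aavgnp and MI with aavFto, and each had 1 library of RNA pulled down with an antibody against m6A (MeRIP) and 1 of RNA that was not pulled down (the input). The age label reads 1 week after MI for every library, sham included, so sham hearts are taken to be from 1 week after surgery. RNA came to 200 µg per group, and poly(A) selection and fragmentation preceded the pulldown. Both aav groups carry an infarct, and neither has a sham counterpart. The labels expand neither aavFto nor aavgnp. The names are read here as a viral vector that delivers Fto and its control vector. The vector's promoter and serotype, the age and sex of the mice and the number of hearts pooled per group were not given in the sources used here.

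Each comparison rests on 1 library pair a group. No difference below has a replicate check, and the authors' differential p and false discovery rate (FDR) compare those libraries, not the conditions. Depth per library is unknown. A positive log2 change was read as higher in MI than in sham, and as higher in aavFto than in aavgnp. The file headers do not state this, and if a table were meant the other way round all its signs would turn. The tables hold no value per library, so the changes, folds, p and FDR of peaks given below are those of the authors' deposited tables. Transcript levels were not analysed here, so a change in methylation cannot be told apart from a change in the transcript or in the make-up of the tissue. In such bulk RNA, fewer cells of a type and less RNA per cell cannot be told apart either. The 2 tables come from separate libraries and share no control. In what follows, rose and fell are used only for peaks past an FDR of 0.05 in the authors' test.

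As background, m6A is written onto RNA by a methyltransferase complex built around METTL3 and METTL14, mostly in long internal exons and near the stop codon, and it is bound by reader proteins that affect splicing, decay and translation. FTO is an enzyme that removes methyl groups from RNA. The mark sits in a short sequence context centred on an adenosine followed by a cytidine, of which GGAC is the best-known core. In MeRIP-seq an RNA fragment is pulled down when it carries the mark, so a peak is a window around a mark and not a single base.

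Short stretches of RefSeq sequence (GRCm38.p6, the assembly of mm10) were held for 4 members, and they show what a member looks like at base level. The Egln1 peak at chr8:124948299-124948388, on the minus strand, is the 1 member whose whole length was covered, because it lies inside the promoter window of the neighbouring gene Gm46060. Egln1 encodes the prolyl hydroxylase that senses oxygen for the hypoxia response. Capitals mark the 4-base core GGAC, read 5′ to 3′ on the RNA strand.
Egln1 peak: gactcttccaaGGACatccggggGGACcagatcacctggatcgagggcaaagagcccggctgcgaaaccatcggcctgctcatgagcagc
GGAC stood at bases 12 to 15 and 24 to 27 of the 90-nt peak, and its reverse complement GTCC was not in it. Of 32851 promoter windows cut at the same place and length, 27.4% held GGAC on the RNA strand, 48.4% on either strand, and 4.77% held at least as many copies on the RNA strand. Outside the peak, the next copies lay at bases -27 to -24 and 93 to 96, counted from the first base of the peak. In the authors' deposited table this peak had a fold enrichment over input of 49.7, an enrichment log10 p of -4.11 and a log2 change of -0.71 (FDR 0.713).

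Another pair of members of the aavFto table covers annotated microRNAs, and the mature sequences of these are shown. They make up 15.4% of the Mir6236 peak and 6.09% and 5.54% of the Pde4dip peak, so they do not mark which stretch was enriched. Capitals mark the seed, bases 2 to 8.
mmu-miR-6236: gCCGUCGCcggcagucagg
mmu-miR-7225-3p: cUUCUAGAcagccucugcagca
mmu-miR-7225-5p: aCGUAGACuguguagaagcc
The 3 seeds differ from each other. The first lies at chr9:110281353-110281371 on the plus strand, inside a 123-nt peak that spans all of Mir6236. That peak stood at a log2 change of 0.04 with a fold enrichment of 11.3 in the authors' deposited table. This fold was the lowest of any member outside the rows at ribosomal RNA, and where the reads of the peak arose was not tested. The other pair lies on the minus strand at chr3:97690509-97690530 and chr3:97690543-97690562, inside a 361-nt peak of Pde4dip, a scaffold protein that binds phosphodiesterase. The Pde4dip peak had a log2 change of 1.70 there, with an FDR of 0.713. Whether its reads came from the microRNA precursor or from the longer transcript was not tested.
For the peak of the noncoding gene A930016O22Rik, 50 of its 180 bases were held, with no GGAC among them, a core that 18.9% of windows of that place and length hold.

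The members were short. Their median length was 121 nt in the MI table (quartiles 75.5 and 180 nt, range 60 to 601) and 151 nt in the aavFto table (quartiles 91 and 231.25 nt, range 57 to 1140). Peaks of 2 or more blocks had medians of 240 and 267 nt. This difference was not tested. Length is tied to the block count that chose the members, since a longer peak meets more exon borders. Of listed peaks up to 62 nt, 17 of 19 (89.5%) in the MI table and 43 of 48 (89.6%) in the aavFto table had 1 block. From 483 nt upwards it was 1 of 4 and 5 of 58 (8.62%).

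Lengths fell on a grid. Within 1 nt of a multiple of 30 lay 63 of 67 members (94.0%) in the MI table and 225 of 242 (93.0%) in the aavFto table, against 37 of 49 (75.5%) and 156 of 223 (70.0%) of peaks with more blocks. Of the MI members 17 measured about 60 nt, 12 about 90 nt and 10 about 120 nt, and of the aavFto members 42, 29 and 32 did. Lengths of this kind give the extent of a peak in steps and not to the base. The longest member of the MI table was a 601-nt peak in Hrc, a histidine-rich protein that binds calcium in the sarcoplasmic reticulum, followed by 481 nt in Tle5 and 385 nt at Nppa. In the aavFto table Hrc led again, with 1140 nt, before a 651-nt row at Nppa and 630 nt in Sparcl1. The shortest, 57 nt, lay in Cox8b, a subunit of cytochrome c oxidase.

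**Figure D1:**
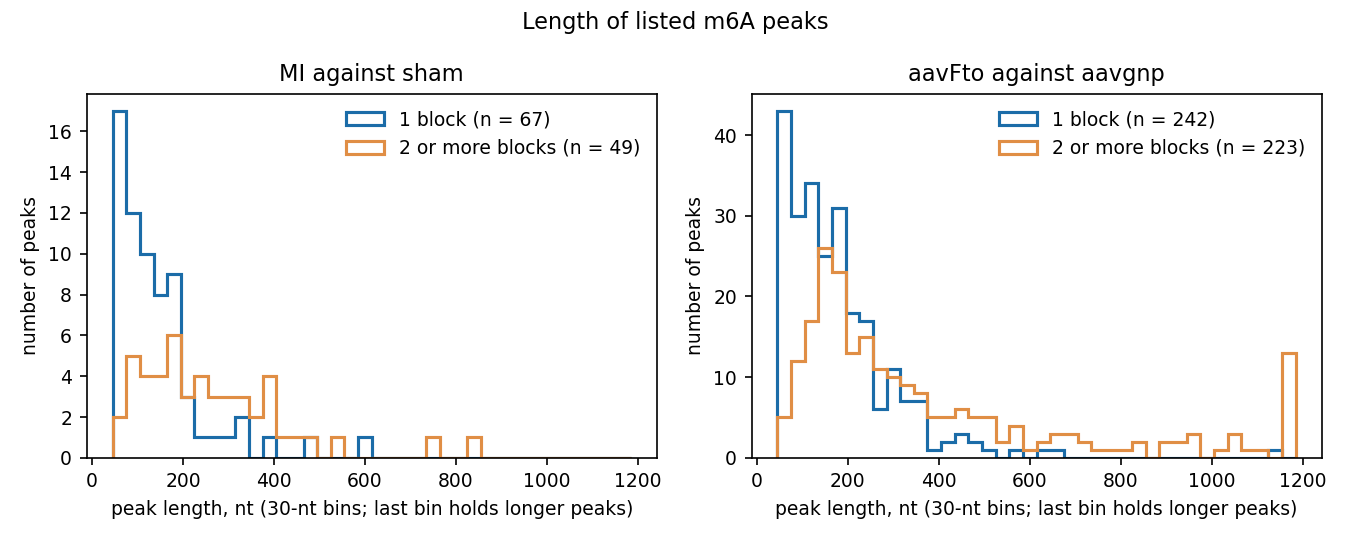
Number of listed peaks by length in nt, in bins of 30 nt, for peaks with 1 block (blue) and with 2 or more (orange), in each comparison. The tallest blue bin in each panel is that of about 60 nt, and from 483 nt upwards only 1 and 5 peaks with 1 block are left.

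The listed folds over input were high and the evidence for each peak modest. Which libraries enter the folds is not stated. The median fold enrichment of members was 62.6 in the MI table (quartiles 37.65 and 75.2, range 8.59 to 129) and 52.15 in the aavFto table (range 6.97 to 126), below the 70.2 and 58.5 of peaks with more blocks. The median enrichment log10 p was -5.25 and -4.885, against -7.21 and -6.21. These differences were not tested. The highest folds in the authors' deposited tables were 129 in Cyb5r3, a reductase of cytochrome b5, in the MI table and 126 in Hspg2, the basement membrane proteoglycan perlecan, in the aavFto table. The lowest, from 6.97 to 10.5, all belonged to rows at the ribosomal RNA locus Rn18s-rs5.

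Many members shared a straight line between fold and p. In each table the line was searched for as the one that held the most members, then refitted to them. Of the MI members, 31 of 67 (46.3%) lay within 2% of a line on which fold enrichment grew by 12.4 for each unit of -log10 p. Of the aavFto members, 156 of 242 (64.5%) lay on a line with a slope of 10.1. Unrelated genes sat side by side on it, so for these peaks the authors' fold and p carry the same information. All 31 MI members on the line had a positive change, against 28 of 36 (77.8%) off it. With aavFto the members on the line were mostly negative, 16 of 156 positive (10.3%) with a median log2 change of -0.81, against 36 of 86 (41.9%) with a median of -0.38 off it. None of the members on either line passed the FDR. All 6 members that did lie off it.

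**Figure D2:**
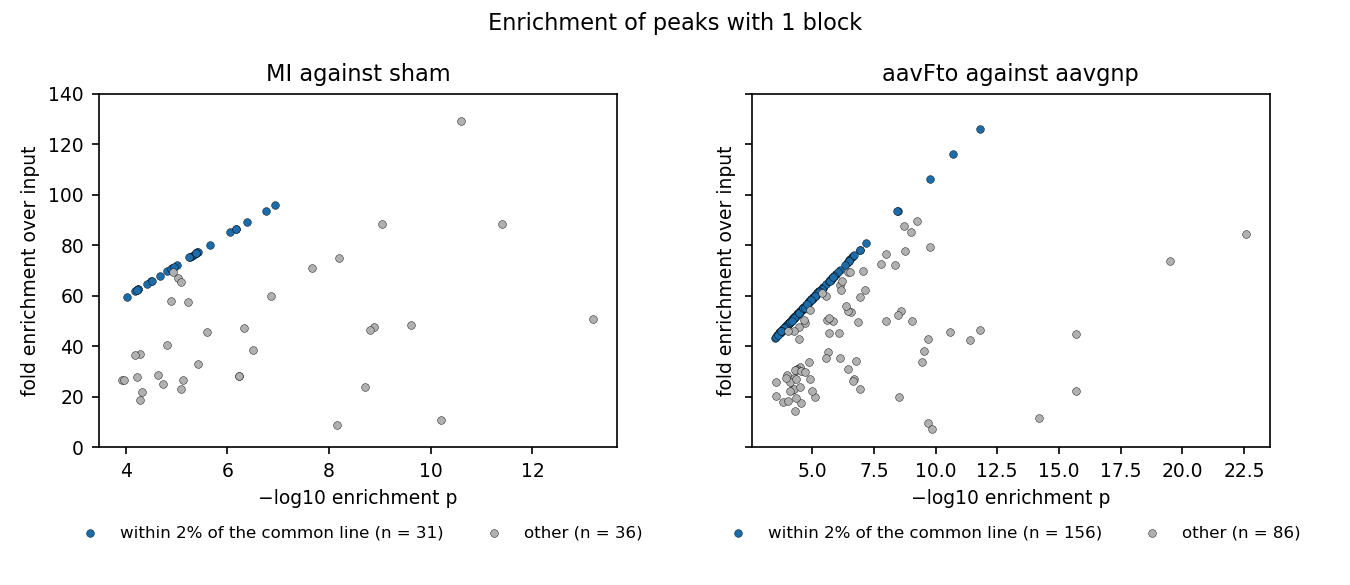
Fold enrichment over input (linear axis) against -log10 of the enrichment p for peaks with 1 block, 1 point a peak, in each comparison. Blue points lie within 2% of the line that many members share, 31 in the MI table and 156 in the aavFto table, and grey points lie off it.

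The median member lay nearer the 3′ end of its gene than the median peak with more blocks did. All 57 and 229 members with a gene ID matched a RefSeq gene and lay inside its span, on its strand in every case where a strand was recorded (44 and 167). The centre of the median member stood at 92.2% of the way along its gene in the MI table and 88.6% in the aavFto table, against 76.2% and 71.1% for peaks with more blocks. Within 1000 nt of the gene's 3′ end lay 32 of 57 members (56.1%) in the MI table, against 14 of 48 (29.2%) of the others and 43.8% of all. In the aavFto table it was 83 of 229 (36.2%) against 31.8%, close to the 34.1% of all. Positions are along the genomic span with introns included, and the differences were not tested. A peak of more blocks spans a gap in the genome, so it cannot lie wholly in a last exon. The contrast in position is thus tied to the block rule that chose the members. Exceptions lay far inside: the 60-nt Trdn peak, in the gene of the junction protein triadin, was 280597 nt from the 3′ end, and an Ahnak peak listed after MI and with aavFto was 59774 nt from it.

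The first comparison addressed how m6A peaks differed between infarcted and sham-operated ventricle. In this comparison 5 members passed the FDR and all rose: 3 rows without a gene ID inside Nppa, which encodes atrial natriuretic peptide, 1 peak in Ankrd1, a sarcomere protein that responds to stress, and 1 in Mhrt, a noncoding transcript of the myosin heavy chain locus. That is 5 of 67 members, where 14.7% of all listed peaks passed, or 12.9% counting positive ones alone, and 12 of 49 peaks with more blocks did. Without rows that lack a gene ID the members past the FDR were 2. At an unadjusted p under 0.05 it was 13 of 67, 11 of them positive, against 25.9% of all listed peaks. For 45 members the FDR was above 0.7. The median log2 change of members was 1.61 (quartiles 1.26 and 2.88, range -1.85 to 7.21). Positive were 59 of 67, or 88.1% (exact 95% interval 77.8 to 94.7, which covers counting error only), beside 84.5% of all listed peaks and 79.6% of those with more blocks. The smallest absolute change in this table was 1.01, so peaks of smaller change are not described by it.

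The 3 called rows at Nppa make up 2 places of the transcript. On chromosome 4, a 385-nt peak from 148001027 to 148001411 on the plus strand rose by 4.39 in the authors' deposited table (FDR 0.00234), and had the strongest enrichment of any MI member (log10 p -13.2, fold 50.8). A 149-nt row from 148000791 to 148000939 on the plus strand and a 148-nt row over the same bases on the minus strand both rose by 6.06 (FDR 0.0209), with the same fold of 28.0 in the authors' deposited table. Rows on opposite strands with like values cannot be counted as separate measurements. The counting is not stated to use strand, and reads of the 2 strands cannot be told apart. The remaining row at Nppa, 119 nt from 148001766 to 148001884, had the largest change of all members, 7.21, but an FDR of 0.160. All 4 rows overlap a peak of 3 blocks that carries the Nppa gene ID and rose by 4.52, so they and that peak are not separate observations.

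Ankrd1 (gene ID 107765) had 2 members, both positive. The called 210-nt peak on chromosome 19, from 36112085 to 36112294 on the minus strand, rose by 2.36 (FDR 0.0324) and lies 120 nt from the gene's 3′ end. The other, 120 nt long and 658 nt from that end, was listed at 3.47 (FDR 0.233). The Mhrt peak (gene ID 791403), 326 nt on chromosome 14 from 54973965 to 54974290 on the plus strand, rose by 2.13 (FDR 0.0363). It shares 102 nt with a minus-strand peak of 2 blocks in Myh7, the fetal myosin heavy chain, which rose by 3.80 in the authors' deposited table (FDR 8.91e-05). Which of the 2 transcripts the reads came from cannot be told apart.

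Members in genes of the extracellular matrix had the largest median of the lists with at least 3 members, with none past the FDR. The 5 peaks of the 3 listed genes were all positive, with a median of 5.08 beside 1.61 for all members. The authors' deposited table gave 6.45 (FDR 0.212) and 5.08 (FDR 0.369) for Sparc, a matrix protein that binds collagen. The other values in the authors' deposited table were 5.12 (FDR 0.368) for Bgn, the proteoglycan biglycan, and 4.28 and 3.94 for Serpinh1, the chaperone of collagen folding. These were short peaks, of 60 to 150 nt, with log10 p between -5.39 and -3.97. Of the basement membrane list, Col4a1 stood at 3.80 and Hspg2 at 2.85.

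Genes of secreted lipid carriers, chaperones and translation followed, again with no member past the FDR. Apoe, apolipoprotein E, stood at 3.51 with an FDR of 0.1005, the lowest outside the called loci. Clu, the secreted chaperone clusterin, stood at 4.39 (FDR 0.1995) and 3.12. All 5 members of the heat shock list were positive, with a median of 1.61, equal to that of all members. In the authors' deposited table they ran from 2.91 for Hsp90ab1 (FDR 0.435) and 2.20 for Hspb7 through 1.61 for Hspa5, the chaperone of the endoplasmic reticulum, to 1.30 for Hspb6 and 1.02 for Cryab. Of the translation list, Eif4g1, the scaffold of the cap-binding complex, stood at 2.56 and Eif3a at 1.45.

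Contractile and calcium genes held members of both signs, mostly positive, as were 88.1% of all MI members. Of 7 members in the sarcomere list 6 were positive and 1 negative, with the Ankrd1 peak the only call and a median of 1.54. Xirp2, which binds actin at the Z-disc, stood at 1.93, Actn2, the actinin of the Z-disc, at 1.54 and Csrp3 at 1.25, while Myom1, which links thick filaments at the M-band, stood at -1.58. Casq2, the calcium store protein calsequestrin, stood at 3.36 (FDR 0.163). Hrc had a 301-nt peak at -1.67 and a 601-nt peak at 1.31, and was the only gene of this table with members of both signs. The list of intercalated disc and cytoskeletal linkers had 1 member of each sign, Dsp, the desmosomal protein desmoplakin, at -1.64 and Ahnak at 1.26.

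All 8 negative members missed the FDR threshold. Lpl, lipoprotein lipase and alone in the mitochondrial and fatty acid list here, had the most negative change, -1.85 (FDR 0.741), at a 121-nt peak, and an overlapping row without a gene ID stood at -1.42. In addition to Hrc, Dsp and Myom1, the authors' deposited table gave -1.39 for Tle5, a corepressor of transcription, and -1.14 and -1.01 for a pair of rows at Rn18s-rs5. Ribosomal RNA is a multi-copy repeat, so the placement of those reads is uncertain.

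The left ventricle of the labels could be checked only through which transcripts had a peak. Of 10 cardiomyocyte markers (Myh6, Actc1, Tnnt2, Tnni3, Myl2, Myl3, Ryr2, Atp2a2, Mb and Pln), Atp2a2 and Pln had members, both in the aavFto table. Actc1, Tnnt2, Tnni3, Myl2, Myl3 and Ryr2 were listed there with peaks of more blocks only. These genes had no listed peak in the MI table, where Atp2a2 was listed with more blocks only. Of the 34 genes of the sarcomere list, 29 had a listed peak of some kind in the aavFto table and 10 in the MI table. Other genes of heart muscle, such as Actn2, Myom1 and Csrp3 of the sarcomere list, had members in the MI table. The atrial genes Myl4, Myl7 and Sln had no listed peak of any kind in either table, while Nppa, the other gene of that list, had a peak of 3 blocks in both. Markers of other cell types had few members in the MI table. Positive were Apoe of the macrophage list (1 of 10 genes with a member), Cdh5 at 1.65 and Eng at 2.56 of the endothelial list (2 of 7) and Pdgfrb at 2.58 of the smooth muscle and pericyte list (1 of 4). Apart from the rows without a gene ID at Nppa, which the atrial list names, the fibroblast, atrial, erythroid, transcription factor and m6A machinery lists had no members. Of the 10 fibroblast genes, 4 had listed peaks of more blocks in the MI table. Summed levels of these markers were not analysed here, and their part in the changes was not tested.

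The second comparison addressed how m6A peaks differed between the aavFto and aavgnp groups, both infarcted. Only 1 member passed the FDR, and it lay at ribosomal RNA: a 61-nt row without a gene ID at Rn18s-rs5, on chromosome 17 from 39847419 to 39847479, rose by 1.44 (p 7.41e-04, FDR 0.0427), with the lowest fold enrichment of all members, 6.97. That is 1 of 242, where 1.72% of all listed peaks passed, the same 1.72% counting positive ones alone, and 7 of 223 peaks with more blocks did. At an unadjusted p under 0.05 this row was again the only member, against 4.3% of all listed peaks and 19 with more blocks. The FDR of the other 241 members was above 0.7. No member in a named gene rose or fell by the authors' test. Another row at Rn18s-rs5, 211 nt long, stood at -0.02.

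Most members nonetheless carried a negative sign. The median log2 change was -0.71 (quartiles -0.95 and -0.36, range -2.41 to 2.58), and 52 were positive and 190 negative. The positive share was 21.5% (exact 95% interval 16.5 to 27.2), beside 32.7% of all listed peaks and 44.8% of peaks with more blocks. Among changes of at least 1 in size, 16 of 66 members were positive (24.2%, interval 14.5 to 36.4), against 39 of 65 (60.0%, interval 47.1 to 72.0) of peaks with more blocks. Peaks of a gene are not independent, and these differences were not tested.

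The sign went with length and with the strength of the peak. Of members up to 62 nt, 2 of 43 were positive (4.65%), then 3 of 30 from 63 to 92 nt, 1 of 33 (3.03%) from 93 to 122 nt and 12 of 57 (21.1%) from 123 to 182 nt. Above that, 17 of 35 (48.6%) were positive from 183 to 242 nt and 17 of 44 (38.6%) from 243 nt upwards. Peaks with more blocks of at least 243 nt were positive in 69 of 112 cases (61.6%). By enrichment, 7 of 93 members (7.53%) with a log10 p of -4.5 or weaker were positive and 17 of 28 (60.7%) of those below -8, where peaks with more blocks had 46 of 70 (65.7%). In the MI table the order ran the other way, with 15 of 15 positive among the weakest members and 6 of 11 (54.5%) among those below -8. The negative ones of these 11 include both rows at Rn18s-rs5 (log10 p -8.16 and -10.2), where the placement of reads is uncertain. In both tables the strongest members were thus split between the signs, and the weakest nearly all carried the sign of the table's majority. Whether low read counts have a part in this was not tested.

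**Figure D3:**
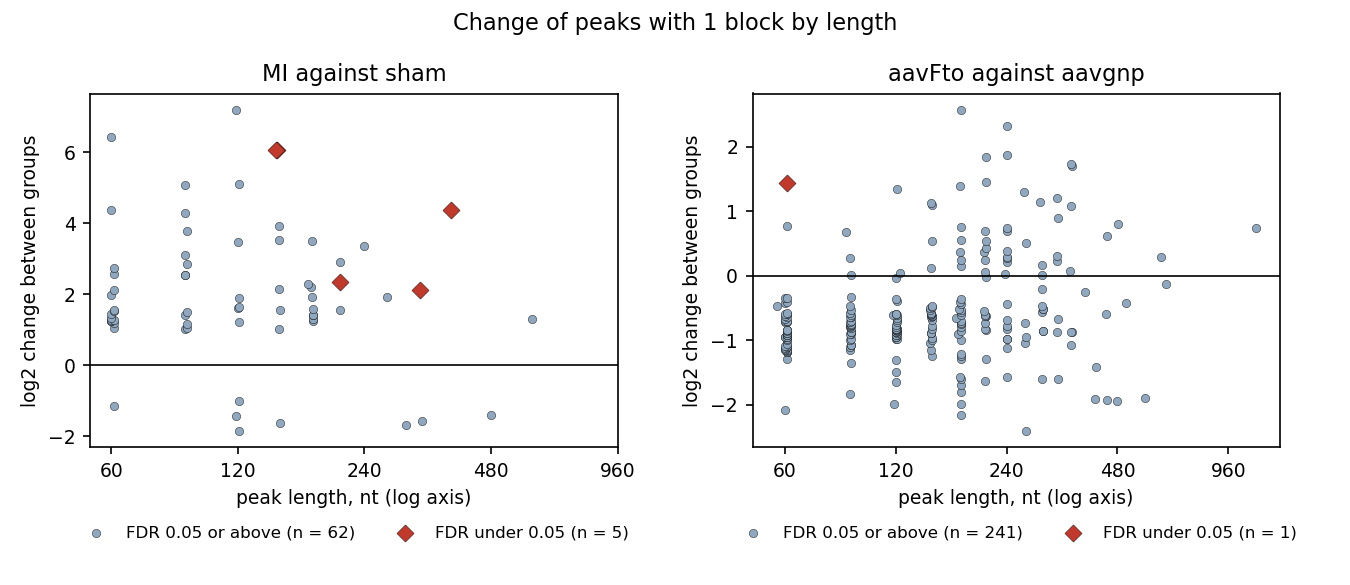
Log2 change between the groups against peak length in nt (log axis) for peaks with 1 block, 1 point a peak, with peaks past an FDR of 0.05 as red diamonds. The MI points lie mostly above 0 (59 of 67), and the aavFto points mostly below 0 (190 of 242), with the short ones, up to 122 nt, almost all below.

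Extracellular matrix genes held 17 members, 14 negative and 3 positive, with a median of -0.63 beside -0.71 for all members. The authors' deposited table gave -2.41 for Fn1, fibronectin (p 0.138), at a 271-nt peak, the most negative change of all members. Bgn had 4 members, all negative, from -1.60 to -0.63, Fstl1 stood at -1.58 and Col6a2 at -1.29. The 3 positive values were small, 0.23 for Eln, elastin, 0.22 at 1 of the pair of Col5a1 peaks and 0.17 for Col1a1. Of the basement membrane list, Sparcl1 stood at 0.30, Col4a2 at 0.54 and Hspg2 at -0.52.

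Sarcomere genes held 26 members, 20 negative and 6 positive, with a median of -0.77. The most negative in the authors' deposited table were Flnc, the muscle filamin, at -2.16 and Ttn, the giant protein titin, at -1.99. Among the positive ones were Cryab at 1.34, Ankrd1 at 1.09 and Xirp2 at 0.51, while Myom2 and Myom1 stood at 0.06 and 0.02. The Ankrd1 peak was 360 nt long and the second strongest of all members by enrichment (log10 p -19.5), with an unadjusted p of 0.0813. Calcium handling genes split, with 5 positive and 6 negative members and a median of -0.81. Atp2a2, the SERCA2 calcium pump, had a 240-nt member at 1.87 and a 61-nt member at -1.16. Gja1, connexin 43, stood at 1.74 and both Hrc peaks were positive, at 0.74 and 0.44, while Trdn stood at -2.08, Pln at -1.09 and Casq2 at -1.07.

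The list of intercalated disc and cytoskeletal linkers held 17 members, 13 negative and 4 positive, with a median of -0.88, of which 10 belonged to Plec, 5 to Dsp and 2 to Ahnak. The chaperone list was evenly split, 5 positive and 5 negative, with a median of -0.13 (Hspb7 1.30, Calr 0.77, Hspb6 -1.07, Hspa5 -0.98). Of 8 mitochondrial and fatty acid members 2 were positive, Mdh2 at 1.13 and Ogdh at 0.54, both enzymes of the citric acid cycle, and the negative ones ran from -0.35 for Fabp4 to -0.99 for Ckmt2. Translation genes had 2 members of each sign, with Eef2 at 0.61 and -0.34. Eif3a stood at 0.70 and Eif4g1 at -0.58. The lysosomal list had Ctsb, a cathepsin, at -1.92 and Ctsd at -0.72 and 0.07. Transcription factors had 1 positive member of 6, with Jun at -1.15, Klf2 at -0.50 and 4 peaks of Nfe2l1 from -1.63 to 0.69. Of the m6A machinery list, Prrc2a, an m6A reader, was the only gene with a member, at -0.84.

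Immune and vascular genes gave mostly negative values without a call. The macrophage members, in Cd74, Ctsb and Ctsd, and those of Postn and Col1a1 also belong to other lists here. A group put together after its values were seen, complement and antigen presentation, had 4 members, all negative: C3 at -1.17, C1qc at -0.91, B2m at -0.54 and Cd74 at -0.52. A row at the immunoglobulin kappa constant region stood at -0.95. The endothelial list had 3 negative members (Cdh5 -0.69 and -0.57, Eng -0.60), the smooth muscle list Pdgfrb at -0.43, the macrophage list 3 negative and 1 positive, and the fibroblast list Gsn at -0.58, Postn at -0.54 and Col1a1 at 0.17. The erythroid gene Hbb-bs, 1 of a pair of near-identical globin genes, stood at 0.67, and no member carried the ID of an atrial marker. With 190 of 242 members negative, a negative sign does not set any of these groups apart.

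Cyb5r3 had the largest positive change of all members, 2.58 (p 0.0575) at a 181-nt peak of the authors' deposited table. Cenpb, a centromere-binding protein, followed at 2.33 (p 0.0912). Ahnak, a giant scaffold protein, stood at 1.84 at a 211-nt peak and at -0.68 at a 331-nt peak. Acin1, an RNA-binding protein of the exon junction complex, stood at 1.45 and Fth1, the heavy chain of ferritin, at 1.39. At the negative end were Rrbp1, a ribosome-binding protein of the endoplasmic reticulum, at -1.95, Cavin1, which coats caveolae, at -1.93, Plec, plectin, at -1.90 and the thioesterase Acot13 at -1.84.

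Several members of the aavFto table often came from the same gene. Of its 161 genes, 40 had at least 2 members and 13 had at least 3, while 7 of the 50 genes of the MI table had 2 and none had more. Of the 40, the members of 21 were all negative, those of 1 (Hrc) all positive and those of 18 mixed. Plec led with 10 members over 9841 nt towards the 3′ end of the gene, 2046 nt of peak in all, of which 9 were negative, with a median of -1.13 and the positive peak at 0.75. Ttn had 5 members, all negative, from -1.99 to -0.26, all within 4909 nt and from 1144 to 5872 nt from the 3′ end of a gene that spans 278578 nt. Dsp also had 5, 3 negative and 2 positive. The positive ones (0.75 and 0.30) were 240 and 330 nt long, and the negative ones 61, 121 and 301 nt. All 3 members of Rrbp1, Cavin1, Ccdc80 and Comp were negative, and Malat1 and Jph2 had both signs. Members of a gene share its transcript, so they are not replicates of a change.

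**Figure D4:**
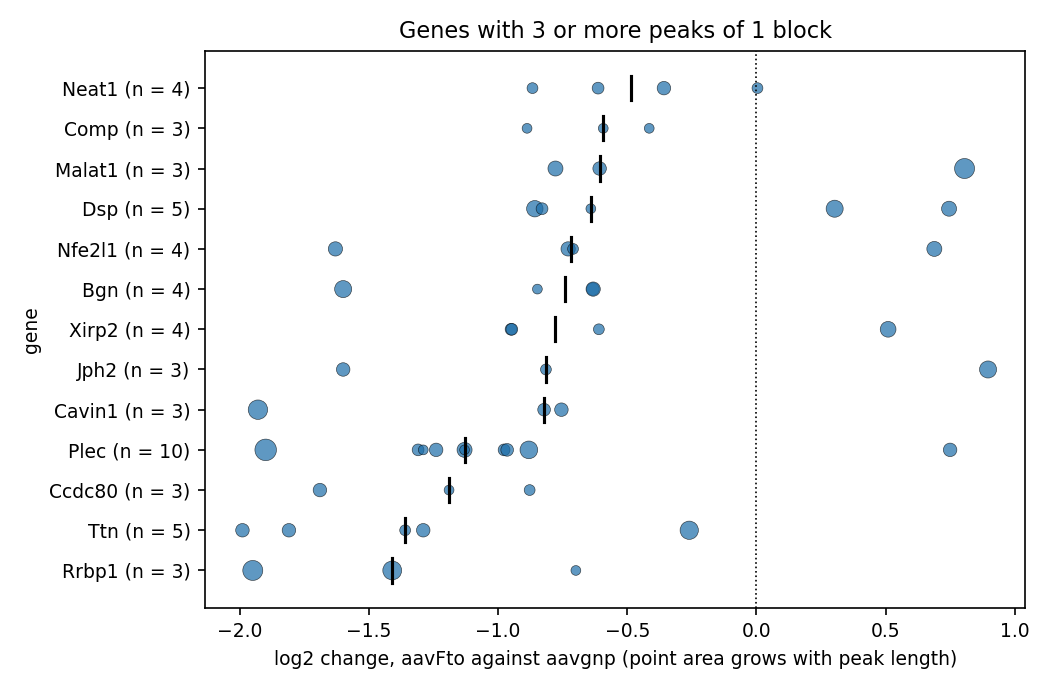
Log2 change, aavFto against aavgnp, for the 13 genes with 3 or more peaks of 1 block. Each point is a peak, its area grows with length, and the black tick is the gene's median. Rrbp1, Ttn and Ccdc80 lie wholly below 0, while Jph2, Malat1 and Nfe2l1 hold both signs.

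Genes without introns can have no peak of more than 1 block. A group of 6 such genes, put together after the tables were seen, held 7 members in the aavFto table, 6 of them negative: Jun at -1.15, Rhob at -1.05, Cenpb at -0.89, the linker histones H1f2 at -0.66 and H1f0 at -0.59, and Jund at -0.21. The other Cenpb peak, 240 nt long, was the positive one at 2.33. In the MI table only Jund, a subunit of the AP-1 transcription factor, had a member, at 2.15.

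Long noncoding RNAs gave some of the strongest members. Their list had 3 positive members in the MI table (median 1.58) and 3 positive and 5 negative members in the aavFto table (median -0.48). Malat1, a nuclear RNA, had a 481-nt peak at 0.81 (p 0.0851, log10 p -15.7) in the aavFto table, between shorter ones at -0.78 and -0.61. The Mhrt peak there had the same log10 p of -15.7 and a change of 0.03, and again shared bases (132 nt) with a minus-strand Myh7 peak. Neat1, the scaffold RNA of paraspeckles, had members at 1.29 and 1.58 in the MI table and 4 from -0.87 to 0.00 in the aavFto table. Of the 10 and 13 rows without a gene ID, 3 and 5 lay at Neat1, 4 and 2 at Nppa and 2 and 2 at Rn18s-rs5. Those at Neat1 overlapped its named peaks, with changes of 1.55 beside 1.58 at an MI locus and, at an aavFto locus, -0.03 at a fold of 50.1 beside 0.00 at 26.9. With overlapping members merged, 67 members were 62 loci and 242 were 233. The A930016O22Rik peak, at 0.55, lies opposite a 7-block peak of Ckm, muscle creatine kinase, at 1.93, and Srsf4 and Gm12992 list nearly the same 210 bases on opposite strands, at -0.62 and -0.63.

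Some genes held peaks of both kinds, which sets them side by side within a transcript. For MI these were 7 of 50 genes, and the median change of the members was higher than that of the peaks with more blocks in 5 (medians 2.92 and 2.40). In the aavFto table it was higher in 18 of 40 and lower in 22 (medians -0.37 and -0.31, median difference -0.09). The signs were opposite in 19 of the 40, 9 with negative members and 10 with positive members. Within a gene the members had the weaker enrichment p in 6 of 7 and 24 of 40. The other 43 and 121 genes had members only.

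Finally, members were traced between the tables. Genes with members numbered 36 in both, 72.0% of the 50 MI genes and 22.4% of the 161 aavFto genes. By position and strand, 41 of 67 MI members (61.2%) overlapped 40 of 242 aavFto members (16.5%) in 46 pairs, 20 overlapped only a peak of more blocks and 6 overlapped nothing listed. The aavFto peak was the longer in 32 of 46 pairs (median 210.5 against 150 nt), the shorter in 7 and equal in 7. Starts differed by a multiple of 30 nt, within 1 nt, in 40 pairs and ends in 39.

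In 27 of the 46 pairs the change was positive after MI and negative with aavFto, in 16 it was positive in both, in 3 negative and then positive, and in none negative in both. None of these pairs passed the FDR in both tables, and the majority sign of each table differs in the same way. Rows at Neat1, Nppa and Hrc enter more than 1 pair, and those at Neat1 overlap each other. The pairs are therefore not separate observations. Bgn stood at 5.12 after MI and -1.60 with aavFto, Sparc at 6.45 and -0.42, Casq2 at 3.36 and -1.07, Rrbp1 at 1.91 and -1.41 and Acot13 at 1.42 and -1.84. Positive in both were Cyb5r3 (1.42 and 2.58), Itgb5, an integrin subunit (3.54 and 1.20), Ankrd1 (2.36 and 1.09), Hspb7 (2.20 and 1.30), Fth1 (1.98 and 1.39) and Ahnak (1.26 and 1.84). The 3 pairs that were negative after MI and positive with aavFto were Hrc (-1.67 and 0.74), Dsp (-1.64 and 0.75) and Myom1 (-1.58 and 0.02). Exactly the same bases were listed in 5 pairs: Cyb5r3, Acot13, Hspa5 (1.61 and -0.98), Hsp90ab1 (2.91 and 0.24) and the 119-nt row at Nppa (7.21 and -1.99). Of the other MI calls, the 385-nt and the 149-nt row at Nppa both met a 651-nt row at -0.14, the strongest member of the aavFto table (log10 p -22.6), and Mhrt met a peak at 0.03.

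**Figure D5:**
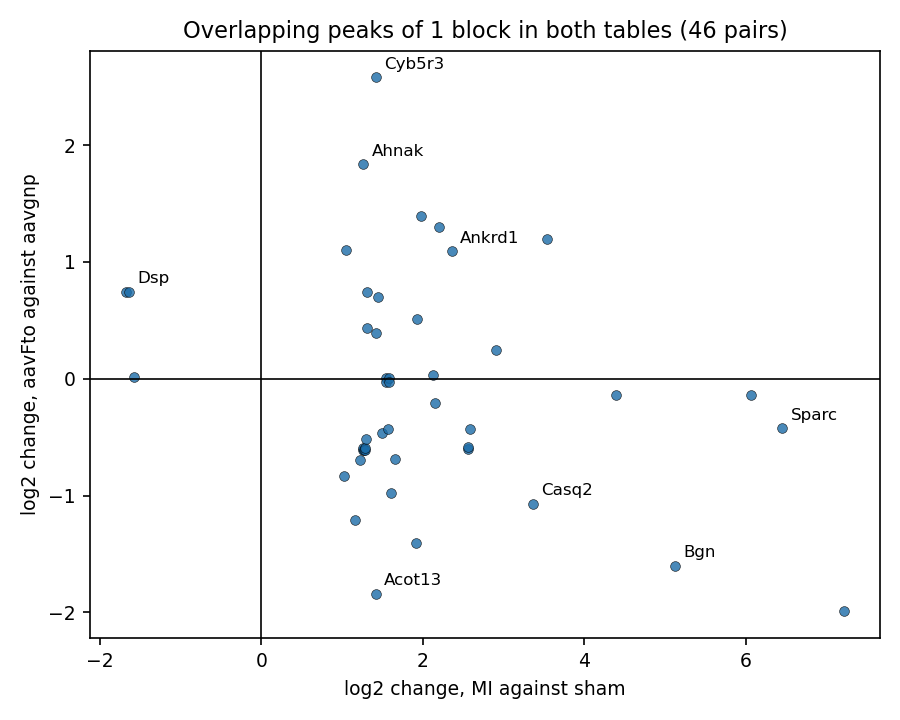
Log2 change in aavFto against aavgnp plotted against log2 change in MI against sham, 1 point for each of 46 overlapping pairs of 1-block peaks. The lower right field, positive after MI and negative with aavFto, holds 27 points, the upper right 16, the upper left 3 and the lower left none. Rows at Neat1, Nppa and Hrc enter more than 1 point, so the points are not separate observations.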

How the data were processed

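The members and lists were chosen with earlier results of these data known. The submitters' processing notes name STAR 2.5.3a and the build mm10. Which peak caller, thresholds and scaling the authors used was not given in the sources used here. Per the file headers, a deposited row gives the blocks of a peak, a strand, a gene ID, an enrichment p-value, its log10, a fold enrichment over input (a linear ratio), a log2 change and, on a log10 scale, its differential p and FDR.

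Length is the block size. Gene names and spans came from a RefSeq table of GRCm38.p6. Coordinates are 1-based. Peaks were shared when they overlapped by at least 1 nt on the same strand. Exact intervals are Clopper-Pearson. Python 3.11.15 was used with pandas 2.3.3, numpy 2.4.6, scipy 1.17.1 and matplotlib 3.10.9, and functions were tested on simulated data. No test was run, since each group has 1 library.

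A rule named, per table, members past an FDR of 0.05, the 10 genes highest and 10 lowest in change, the 5 longest, shortest, most enriched and smallest in p, up to 4 genes for each of 18 lists, genes with 3 or more members, up to 12 shared peaks and rows without an ID. Not all are printed. Genes of 2 added lists, further members of the 18 lists, Egln1, A930016O22Rik, Srsf4 and Gm12992 were named after their values were seen. Alternatives were the FDR, a minimum change or enrichment, merged loci, 1 peak a gene, rows with an ID alone, the X, Y and mitochondrial chromosomes left out, and the overlap rule.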

Additional observations from a re-analysis of the deposited data

How the results depend on the processing

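Of 80 alternative values over 15 results, 60 kept their direction and stayed near the value reported, 20 moved and 0 reversed. The 60 include the MI values at a minimum change of 1, which could not differ. The smallest MI change was 1.01, so that filter left all 67 members in. The number of MI members past the FDR went from 5 to 1 with 1 peak a gene, to 2 without rows that lack a gene ID and to 1 at an FDR of 0.01. The number for aavFto went from 1 to 0 in each of these, and also to 0 without the rows at Rn18s-rs5, an alternative chosen after seeing the data. With members at an enrichment log10 p of at most -5, the MI medians were 151 nt for length, 71.4 for fold and -6.195 for log10 p. With the same members of the aavFto table, the positive share was 34.9%, and the medians were -0.547 for the log2 change, 211 nt, 61.6 for fold and -6.41. With aavFto changes of at least 1 in size, the medians were -1.16 for the log2 change, 179.5 nt and 50.0 for fold. Shared MI members numbered 27 when at least 50% of both peaks had to overlap and 5 when the bases had to be identical, against 41. Leaving out a replicate was not possible, with 1 library a group. No paired analysis was possible because each group has 1 library. Library totals were not analysed here, so what depth limits cannot be said.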
